A study of Mus musculus with 6 samples.

Results

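Semaphorins, plexins and neuropilins form a ligand and receptor system that was measured here in NIH3T3, an established fibroblast line from mouse embryos. The members were all genes whose annotated symbol is a semaphorin of class 3 to 7, a plexin of family A to D, or Nrp1 or Nrp2. They came to 31 of the 18193 genes that had a probe set paired with a single gene, and comprised 20 semaphorins, 9 plexins and 2 neuropilins. Each gene was read at its probe set with the highest mean over the arrays. The study held 6 Affymetrix arrays of total RNA, 3 from cells with mutant LPAR1 and 3 from cells with wild-type LPAR1. LPAR1 is a receptor for lysophosphatidic acid, a lipid that drives cytoskeletal change in fibroblasts. For either genotype a single array was taken at 0, 60 and 120 minutes, and the design thus holds no repeat of any array. The labels do not name the mutation, the treatment whose time was counted, or the number of cultures or clones behind the arrays.

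Semaphorins are secreted or membrane-bound proteins that steer cell movement, best known from the guidance of growing axons. They act through plexins, receptors whose cytoplasmic part switches off small GTPases of the Ras and Rap type, so that adhesion and the actin skeleton are reorganised. Most secreted class 3 semaphorins bind a neuropilin, which joins a plexin of the A or D type in the receptor. Membrane-bound semaphorins of classes 4 to 6 bind plexins directly. In fibroblasts and other mesenchymal cells the system is known for its effects on adhesion, cell shape and migration.

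The arrays had a median intensity of 34.1 to 37.3, and the 40th percentile over genes served as the lower limit for testing. It was taken on a gene's mean log2(intensity + 16) over the 6 arrays and lay at 5.79, which is an intensity of 39.2. Of the 31 genes, 20 lay above it and 11 below, and the 20 included 10 of 20 semaphorins, 8 of 9 plexins and both neuropilins. Of 11 fibroblast markers 10 lay above the limit, among them Col1a2, Vim and Fn1. Of 7 endothelial markers only Cdh5 was above it, at 64.6, 61.4 and 62.1 in mutant cells. Its wild-type arrays, at 22.4, 23.0 and 27.4, lay below the limit, so it passed the limit through its level in mutant cells. The summed intensity of the 7 markers was 126 to 140 in mutant cells, against 81.9 to 90.3 in wild-type cells. Pecam1, Tek and Vwf were below the limit on every array. Of 7 neuronal markers 3 were above it (Syt1, Stmn2 and Tubb3), with a summed intensity of 176 to 224 in mutant cells and 254 to 266 in wild-type cells. Above it were also 4 of 6 macrophage and leukocyte markers (sums of 553 to 574 in mutant and 604 to 622 in wild-type cells; Ptprc and Cd68 were below) and 2 of 6 epithelial markers (328 to 438 in mutant and 362 to 431 in wild-type cells). The part of such cells in the results was not tested. As a mark of RNA integrity, the Actb control signal at the 5' end over that at the 3' end was 0.505 in mutant and 0.579 in wild-type cells at 0 minutes. It was 0.683 and 0.661 in mutant cells and 0.650 and 0.699 in wild-type cells at 60 and 120 minutes. All 13 genes listed as a check of stimulation, such as Fos and Egr1, passed as higher at 60 than at 0 minutes.

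**Figure D1:**
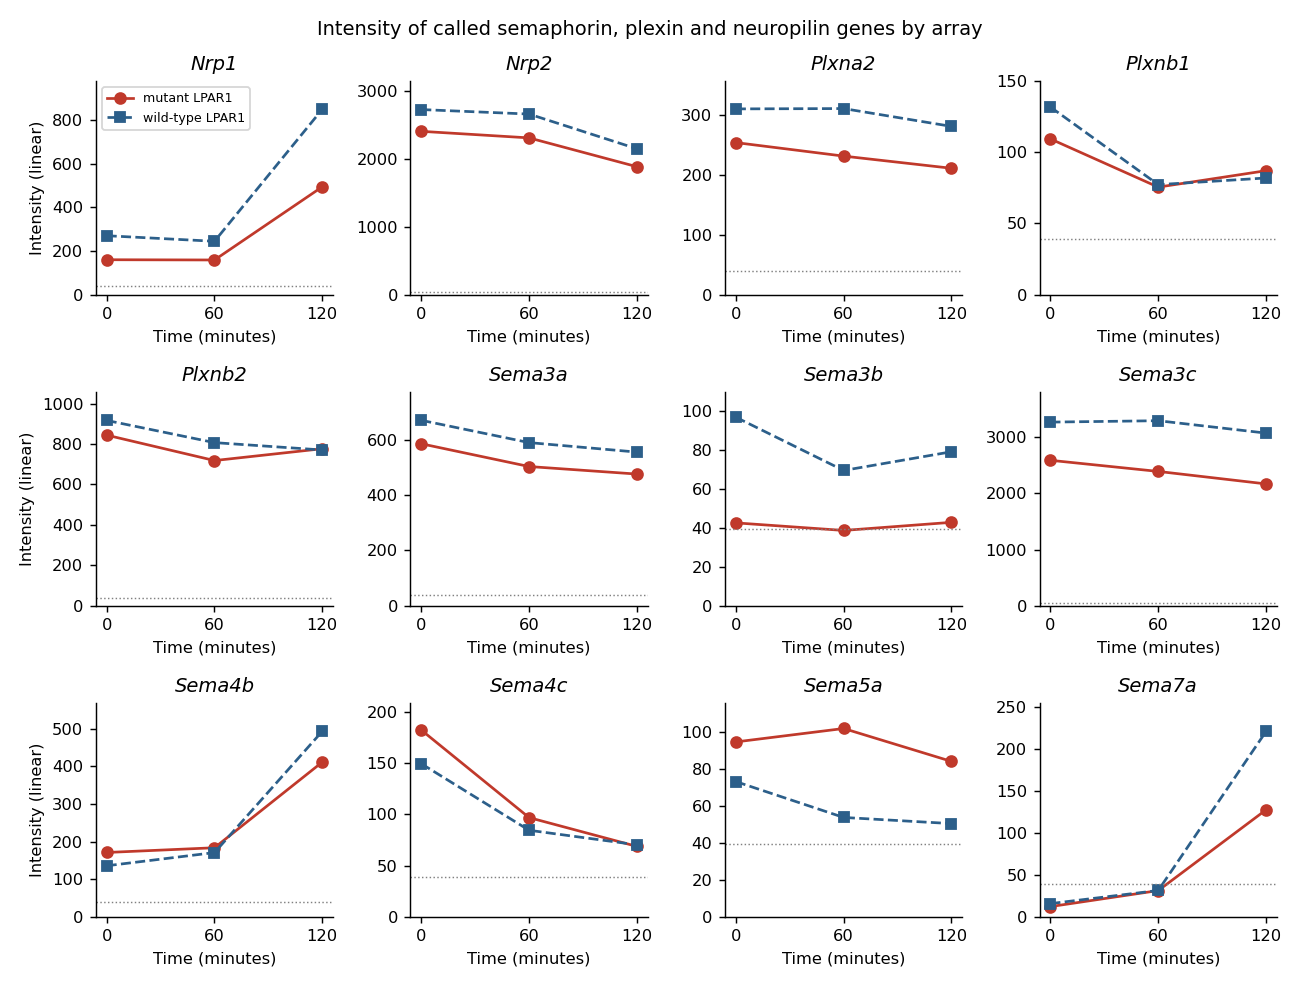
Linear intensity of the 12 genes that passed in at least 1 contrast, against time in minutes, in mutant LPAR1 cells (filled circles) and wild-type LPAR1 cells (squares, dashed line); each point is 1 array and the dotted line is the limit for testing, an intensity of 39.2. Nrp1, Sema4b and Sema7a rise between 60 and 120 minutes in both genotypes, and the mutant arrays of Sema3b, Sema3c and Plxna2 all lie below the wild-type arrays.

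The comparison of genotypes asks how cells with mutant LPAR1 differed from cells with wild-type LPAR1 across the 3 times. Among the members that passed, the secreted ligands Sema3a, Sema3b and Sema3c and the receptor components Nrp1, Nrp2 and Plxna2 were lower in mutant cells. The transmembrane ligand Sema5a was higher. The sizes ran from 0.19 (Nrp2) to 0.76 (Sema3b) on the log2 scale, where the Sema3b difference is 1.69-fold. The class 3 ligand Sema3f and the other tested plexins of the A and D type did not pass. In all, 7 of 20 tested members passed at an adjusted p of 0.05 (limma, with time as a block), 1 higher and 6 lower. Over all 10916 genes tested, 19.4% passed, 10.4% higher and 8.95% lower. That split turned to 725 higher and 848 lower with the mean of all probe sets, to 572 and 791 without the mutant array of 60 minutes and to 580 and 783 without the wild-type one. In each of these 1 member was higher and 5 were lower, but not always the same genes. With the mean, where 18 members were tested, Nrp2 no longer passed and Plxnd1 passed as lower (log2 -0.20, adjusted p = 0.0479). Plxnd1 has 1 probe set, so its log2 difference did not change there and only its adjusted p moved. The split was 1267 and 1420 when all probe sets were fitted, and 39 and 52 without the time block. The median log2 difference was -0.10 over the members and 0.01 over all genes. Mutant intensity was lower at each of the 3 times for 9 of 20 members and for 22.9% of all genes, and higher at each time for 1 of 20 and 28.4%. The 3 mutant arrays did not overlap the 3 wild-type arrays for 4 members (Plxna2, Sema3b, Sema3c and Sema5a) and for 16.7% of all genes. In RNA from whole cultures, fewer cells that express a gene and less RNA per cell cannot be told apart. With 1 array per genotype and time, the error behind the p-values is how far the genotype difference varied over the 3 times. That error was shrunk towards the trend over all genes and also serves the time contrasts. It is not a spread among repeated arrays or separate cultures, and such cultures are not named. Without the time block 0 of the 20 passed (limma; 4 at an unadjusted p under 0.05: Plxna2, Sema3b, Sema3c and Sema5a), with the 7 at adjusted p from 0.0599 for Sema3b to 0.842 for Nrp1, because the spread over time then counts as error.

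**Figure D2:**
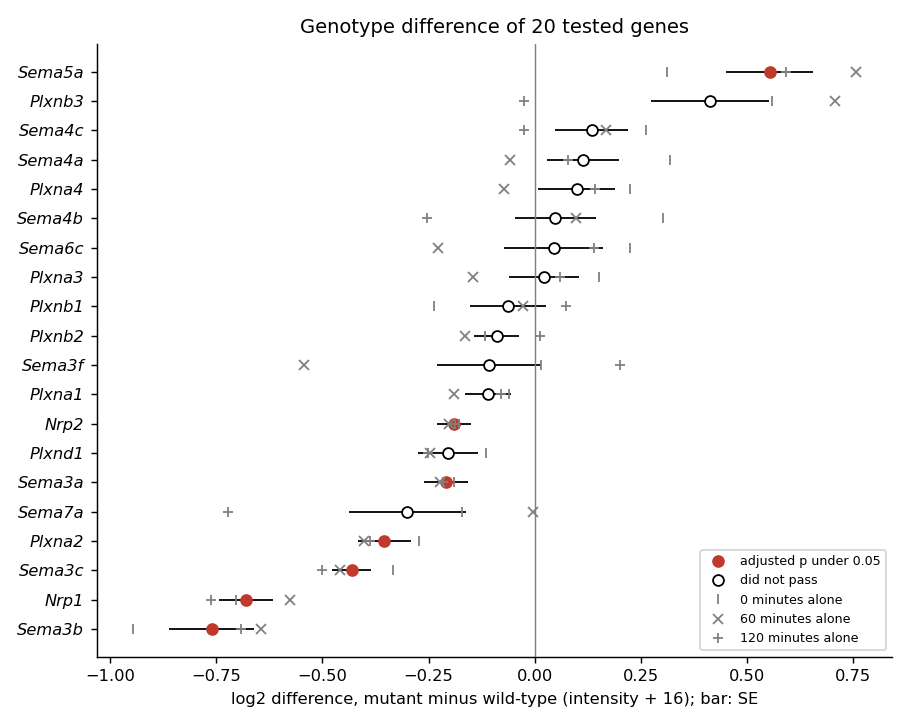
Log2 difference of mutant minus wild-type cells (intensity + 16) for the 20 tested genes, with circles at the fitted difference, bars for its SE, filled circles for the 7 genes that passed, and grey marks for the difference at 0, 60 and 120 minutes alone. The marks of Nrp1, Sema3b and Sema3c all lie left of 0 and those of Sema5a all right of it, while Sema3f and Plxnb3 scatter widely over the times.

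Among the ligands, Sema3c, a secreted semaphorin that signals through neuropilins and is known from heart outflow tract development, had intensities of 2592, 2394 and 2171 at 0, 60 and 120 minutes in mutant cells, against 3273, 3298 and 3077 in wild-type cells. Every mutant array was below every wild-type array, and mutant arrays held 79.2% of the wild-type intensity at 0, 72.6% at 60 and 70.6% at 120 minutes. Mutant cells differed by -0.43 ± 0.045 in log2 (SE; adjusted p = 0.000223). A second, dimmer probe set of Sema3c gave -0.41 (adjusted p = 0.0108 when all probe sets were fitted). There mutant arrays held 63.9%, 80.5% and 80.6% of the wild-type intensity, so the sets share the direction but not its course over time.

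Sema3a, the prototype axon repellent, had intensities of 587, 504 and 477 in mutant cells and 672, 591 and 557 in wild-type cells. The mutant array was the lower of the pair at each time, although the groups overlap across times. The log2 difference was -0.21 ± 0.052 (adjusted p = 0.0204), and the other probe sets gave -0.19 and -0.44. Sema3a had the largest adjusted p of the 7. It no longer passed when any 1 of the 0 or 60 minute arrays was left out, with adjusted p from 0.0701 to 0.0764, nor without the trend in shrinkage (0.0503). Leaving out either array of a time drops that pair from the genotype difference, so both arrays of a time give the same result. A change between the remaining times then keeps its size, and only its error moves.

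Sema3b, a secreted semaphorin that can signal through Nrp2 and is known as a tumour suppressor in human cells, had intensities of 42.4, 38.6 and 42.7 in mutant cells, close to the limit for testing. In wild-type cells it had 96.6, 69.3 and 78.9. The log2 difference was -0.76 ± 0.10 (adjusted p = 0.000842), the largest among the 20 tested members. Its size depended on the offset added before the logarithm, at -0.96 with offset 1 and -0.46 with offset 64. The other Sema3b probe sets, which lay below the limit, gave -0.31 and -0.15.

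Sema3f, a ligand of Nrp2, did not pass (log2 -0.11 ± 0.12; adjusted p = 0.582). Its intensities were 185, 108 and 170.5 in mutant cells and 182, 165 and 146 in wild-type cells. The mutant array was the lower at 60 minutes and the higher at 0 and 120 minutes, so no common difference across times was seen. Its change between 0 and 60 minutes (-0.41 ± 0.15; adjusted p = 0.0885) passed without the wild-type array of 60 minutes (-0.74; 0.00157) or without either 120 minute array (-0.41; 0.0182 without the mutant and 0.0183 without the wild-type array).

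Sema5a is a transmembrane semaphorin with thrombospondin repeats that binds Plxnb3. It was the member that passed as higher in mutant cells. Its intensities were 94.5, 102 and 84.0 in mutant cells and 73.1, 53.7 and 50.4 in wild-type cells, with no overlap between the groups. This amounts to a log2 difference of 0.55 ± 0.10 (adjusted p = 0.00564), with 0.31 at 0, 0.76 at 60 and 0.59 at 120 minutes. A second probe set above the limit gave 0.42 (adjusted p = 0.0246 when all probe sets were fitted), and those below it gave 0.18 and 0.15.

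Plxnb3, a receptor of Sema5a, had intensities of 55.8, 78.2 and 49.1 in mutant cells and 32.8, 41.7 and 50.3 in wild-type cells. It was higher in mutant cells at 0 and 60 minutes and not at 120 minutes. The log2 difference of 0.41 ± 0.14 did not pass (adjusted p = 0.0650). It passed without the 120 minute pair (log2 0.63; adjusted p = 0.00202 with either array of the pair left out, which is the same comparison). It also passed with arrays quantile-normalised (0.43; 0.0453).

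Among the receptors, Nrp1, a neuropilin that binds Sema3a and the angiogenic factor VEGF-A, had intensities of 159.9, 159 and 495 at 0, 60 and 120 minutes in mutant cells, against 270.3, 245 and 851 in wild-type cells. The mutant array held 59.2% of the wild-type intensity at 0, 64.9% at 60 and 58.2% at 120 minutes. The groups overlap across times because the level changes with time, but each pair differs in the same direction. The fitted log2 difference was -0.68 ± 0.063 (adjusted p = 0.000105), and the 3 other Nrp1 probe sets gave -0.67, -0.70 and -0.48.

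Nrp2, the neuropilin preferred by Sema3f, differed less. Its intensities were 2411, 2314 and 1889 in mutant cells and 2733, 2666 and 2153 in wild-type cells, so that the mutant array held 86.8% to 88.2% of the wild-type intensity at the 3 times. The log2 difference was -0.19 ± 0.041 (adjusted p = 0.0108), and the other 3 probe sets gave -0.083, -0.11 and -0.064. With the mean of all Nrp2 probe sets the difference was -0.11 and did not pass (adjusted p = 0.123), nor did it pass without the trend in shrinkage (0.0647).

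Plxna2, a plexin that serves class 3 and class 6 semaphorins, had intensities of 253, 231 and 211 in mutant cells and 309.6, 310.2 and 280.5 in wild-type cells. All mutant arrays were below all wild-type arrays. The log2 difference was -0.35 ± 0.063 (adjusted p = 0.00444), and the other probe sets gave -0.35, -0.30 and -0.12.

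The other plexins did not pass for genotype. Plxnd1, the receptor of Sema3e on blood vessels, had intensities of 152, 131 and 159.6 in mutant cells and 166, 159 and 193 in wild-type cells (log2 -0.20 ± 0.071; adjusted p = 0.0723). It was lower in mutant cells at each time and reached the threshold only in the setting with the mean of all probe sets (0.0479). With 1 probe set, Plxnd1 kept its log2 values in that setting in every contrast, and only the adjusted p moved. The Plxnd1 change from 60 to 120 minutes, 0.26 ± 0.087, did not pass (0.0555). That change passed with the mean of probe sets (0.0333), quantile normalisation (0.0305), arrays centred on their medians (0.0209) and no trend in shrinkage (0.0467). Plxna1, which with Nrp1 forms a receptor of Sema3a, had 594, 522 and 604 in mutant cells and 619.9, 597 and 639 in wild-type cells (-0.11 ± 0.054; 0.191). Plxna3, a partner of Nrp2 for Sema3f, had 142, 107 and 121 in mutant cells and 126, 119.6 and 116 in wild-type cells. Plxna4 had 93.2, 86.8 and 87.4 in mutant cells and 77.4, 92.1 and 77.6 in wild-type cells. Both lay close together in the genotypes, with log2 differences of 0.02 and 0.10, and Plxnb1 and Plxnb2 had -0.06 and -0.09. Sema4a, a transmembrane ligand best known from immune cells, had 171, 143 and 164 in mutant cells and 134, 149.9 and 155 in wild-type cells (0.11 ± 0.085; 0.395). Sema4b, Sema4c and Sema6c gave 0.05, 0.13 and 0.04. Apart from Plxna1 and Plxnd1, the sign of the difference in these genes varied between the times.

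The time contrasts describe what changed in both genotypes, with 2 arrays per time, 1 of each genotype. Nrp1, Sema4b and Sema7a rose between 60 and 120 minutes, while Sema4c and Plxnb1 fell within the first 60 minutes. Between 0 and 60 minutes 3 of 20 members passed, 1 higher and 2 lower, against 18.0% of all genes (7.34% higher and 10.7% lower). Between 60 and 120 minutes 4 passed, 3 higher and 1 lower, against 25.1% of all genes (10.2% higher and 14.9% lower). Over the whole 120 minutes 9 passed, 3 higher and 6 lower, against 47.0% of all genes (16.2% higher and 30.8% lower). With arrays centred on their medians the split of all genes over 120 minutes was 2466 higher and 2314 lower, against 1768 and 3359 as deposited, and that of the members 3 and 4. It was 1026 higher and 884 lower for 60 against 0 minutes (801 and 1163 as deposited) and 1666 higher and 1333 lower for 120 against 60 minutes (1111 and 1630). The shares called among the members were near those of all genes. The contrasts share arrays with each other. The Actb 5' to 3' ratio given above differed between the 0 minute arrays and the later ones, and its part in the time changes was not tested.

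**Figure D3:**
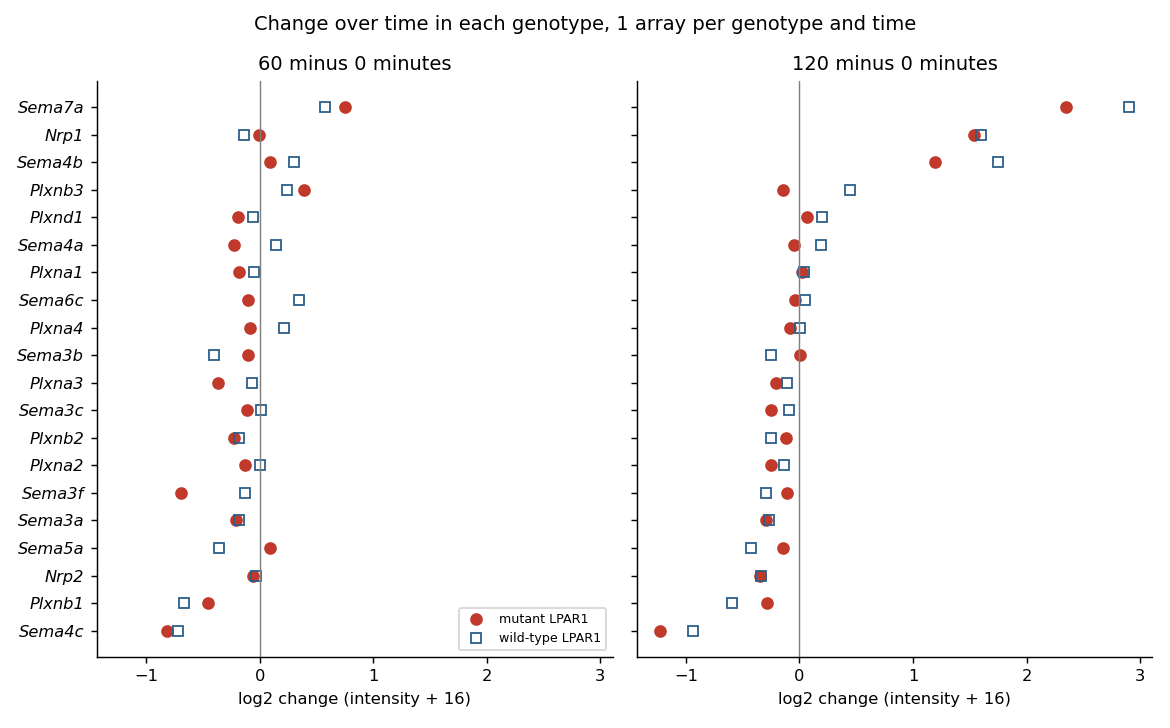
Log2 change (intensity + 16) from 0 to 60 minutes (left) and from 0 to 120 minutes (right) for the 20 tested genes, in mutant LPAR1 cells (filled circles) and wild-type LPAR1 cells (open squares), 1 array at each time and genotype. Sema7a, Nrp1 and Sema4b stand to the right at 120 minutes in both genotypes and Sema4c to the left at both times; for Sema7a and Sema4b the wild-type change at 120 minutes is the larger.

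Sema7a is a semaphorin held to the membrane by a lipid anchor that signals through integrin beta 1 and Plxnc1. Its intensities were 12.15, 31.3 and 128 at 0, 60 and 120 minutes in mutant cells, against 15.7, 31.4 and 221 in wild-type cells. On the 0 and 60 minute arrays the gene lay below the limit for testing, so it entered the test through its 120 minute level. The log2 change was 0.66 ± 0.17 at 60 minutes (adjusted p = 0.0225) and 2.63 ± 0.17 at 120 minutes (adjusted p = 1.71e-06). With 0 minute levels this low the size depends on the offset, and the 120 minute change was 3.51 with offset 1 and 1.58 with offset 64. The 60 minute call was lost with offset 64 (log2 0.29; adjusted p = 0.121), without the wild-type array of 0 minutes (0.57; 0.102) and without the mutant array of 60 minutes (0.44; 0.176). The other Sema7a probe set, with a mean intensity of 5.10, gave 0.25 at 120 minutes. For genotype the log2 difference of Sema7a was -0.30 ± 0.14 and did not pass (adjusted p = 0.158), with the mutant array the lower at each time.

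Sema4b, a transmembrane semaphorin, had intensities of 171, 183 and 411 in mutant cells and 136, 171 and 493 in wild-type cells. The 60 minute arrays stood near those of 0 minutes, and the 120 minute arrays stood above both in each genotype. The log2 change was 0.20 ± 0.12 at 60 minutes (adjusted p = 0.278) and 1.47 ± 0.12 at 120 minutes (adjusted p = 7.21e-06), a 2.77-fold rise.

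For Nrp1, whose intensities are given above, the 60 minute level did not differ from that of 0 minutes beyond its error (log2 -0.07 ± 0.078; adjusted p = 0.555). At 120 minutes it had risen by log2 1.57 ± 0.078 over 0 minutes (adjusted p = 2.93e-07), or 2.97-fold. The rise between 60 and 120 minutes was 3.12-fold in mutant cells and 3.48-fold in wild-type cells.

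The promoters of the 3 rising genes and of Sema4c, the gene with the largest fall, are shown because these genes moved most. Each is the RefSeq sequence (GRCm38.p6) of the 250 bases before an annotated start of transcription, read 5' to 3' on the strand of the gene. The Sema7a window is chr9:57939862-57940111 (plus strand), that of Nrp1 chr8:128358823-128359072 (plus strand), that of Sema4b chr7:80186620-80186869 (plus strand, the first of its 2 annotated starts) and that of Sema4c chr1:36558382-36558631 (minus strand, the outer of 2 starts). Capitals mark matches to the motifs searched.
Sema7a: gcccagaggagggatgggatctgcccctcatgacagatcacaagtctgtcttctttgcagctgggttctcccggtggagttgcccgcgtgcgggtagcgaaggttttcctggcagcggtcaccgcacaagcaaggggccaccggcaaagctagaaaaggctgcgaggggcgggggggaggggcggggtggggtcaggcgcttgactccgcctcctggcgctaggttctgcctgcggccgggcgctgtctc
Nrp1: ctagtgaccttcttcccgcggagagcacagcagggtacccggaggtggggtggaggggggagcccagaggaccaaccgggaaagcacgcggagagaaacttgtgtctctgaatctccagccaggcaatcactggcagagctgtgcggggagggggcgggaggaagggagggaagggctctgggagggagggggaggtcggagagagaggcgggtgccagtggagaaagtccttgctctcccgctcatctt
Sema4b: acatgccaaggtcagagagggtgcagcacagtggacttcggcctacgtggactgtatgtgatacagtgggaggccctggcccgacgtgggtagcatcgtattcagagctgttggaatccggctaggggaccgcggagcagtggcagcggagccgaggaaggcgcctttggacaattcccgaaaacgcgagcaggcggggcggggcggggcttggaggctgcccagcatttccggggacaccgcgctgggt
Sema4c: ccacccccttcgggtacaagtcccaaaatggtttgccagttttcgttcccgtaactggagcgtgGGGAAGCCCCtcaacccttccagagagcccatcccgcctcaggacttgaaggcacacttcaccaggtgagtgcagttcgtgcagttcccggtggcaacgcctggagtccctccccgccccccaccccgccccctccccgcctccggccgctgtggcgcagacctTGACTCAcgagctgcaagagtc

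Both strands were searched for the AP-1 motif TGANTCA, the cAMP response element TGACGTCA and its core TGACG, the EGR motif GCGNGGGCG, the CArG box of SRF and the NF-kB motif. These belong to factors that serum and lysophosphatidic acid are known to activate. No motif matched in the windows of Sema7a, Nrp1 or Sema4b, the second start of Sema4b included. The Sema4c window shown held an AP-1 match 22 to 16 bases before the start and an NF-kB match 186 to 177 bases before it, which do not overlap. The window of the inner Sema4c start held no match. Among 32851 promoter windows of this length in the table, 6.75% held the AP-1 motif, 7.25% the NF-kB motif, 4.70% the EGR motif, 1.55% the cAMP response element, 17.8% its core and 1.47% the CArG box. Among the other genes that passed a contrast, Plxna2 held the EGR motif at 2 places and Sema5a and Plxnb2 at 1 each. Windows were found for 26 of the 31 genes. Among the genes that passed a contrast, Sema3b had no window and was not searched. A match is only a description of the letters.

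Sema4c, a transmembrane ligand of Plxnb2, had intensities of 182, 96.9 and 68.8 at 0, 60 and 120 minutes in mutant cells, against 149.5, 84.5 and 70.3 in wild-type cells. Both genotypes were lower at each later time. The gene fell by 0.77 ± 0.11 on the log2 scale at 60 minutes (adjusted p = 0.000728) and by 1.08 ± 0.11 at 120 minutes (adjusted p = 2.48e-05), which is 2.12-fold. The further change between 60 and 120 minutes was -0.32 ± 0.11 and did not pass (adjusted p = 0.0527), but passed without the wild-type array of 120 minutes (-0.44; 0.0244). It also passed with offset 1 (0.0480), the mean of probe sets (0.0331), quantile normalisation (0.0442) and no trend in shrinkage (0.0458). Sema4c has 1 probe set, so in the setting with the mean its log2 change stayed the same and only the adjusted p moved.

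Plxnb1, the receptor of Sema4d, had intensities of 109, 75.5 and 87.1 in mutant cells and 132, 77.3 and 82.0 in wild-type cells. It fell by 0.56 ± 0.11 on the log2 scale at 60 minutes (adjusted p = 0.00613) and stood 0.44 ± 0.11 lower at 120 than at 0 minutes (adjusted p = 0.00836). The fall rests in part on the wild-type array of 0 minutes: without it the changes were -0.43 (adjusted p = 0.109) and -0.31 (0.162). Leaving out the wild-type array of 120 minutes likewise ended the later call (-0.34; 0.0647), and the second Plxnb1 probe set gave -0.13 at either time.

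Smaller falls over 120 minutes passed for Nrp2 (log2 -0.35 ± 0.050; adjusted p = 0.000334), Sema3a (-0.28 ± 0.063; 0.00519), Sema3c (-0.17 ± 0.056; 0.0290) and Plxnb2 (-0.18 ± 0.066; 0.0452). Nrp2 also passed as lower from 60 to 120 minutes (-0.30 ± 0.050; 0.00165), a change that was 0.0061 with the mean of its probe sets. Plxnb2, which binds Sema4c, had intensities of 844, 718 and 777 in mutant cells and 917, 807 and 771 in wild-type cells. When each array was centred on its median, Plxnb2 gave -0.09 (adjusted p = 0.346) and Sema3c -0.08 (0.295). Sema3a at 120 minutes was lost without the mutant array of 0 minutes (-0.26; 0.0539), and Sema3c without it (-0.10; 0.331) or without the mutant array of 120 minutes (-0.12; 0.212). Plxnb2 was lost without either 0 minute array (-0.20; 0.126 without the mutant array and -0.16; 0.227 without the wild-type one) or the wild-type array of 120 minutes (-0.11; 0.336). It was also lost with no limit on low values (0.0655), with all probe sets fitted (0.0683) and without the trend in shrinkage (0.0916). Sema3c was lost without the trend (0.104) and with the mean of its probe sets (0.169), and Sema3a with that mean (0.269). The other probe sets of Sema3a gave 0.13 and -0.14 at 120 minutes and the second Sema3c set -0.03, and none of these passed when all probe sets were fitted (adjusted p = 0.240, 0.345 and 0.844). Members that passed only when 1 array was left out were Sema5a over 120 minutes without the mutant array of 0 minutes (-0.47; 0.0483), and Sema3a and Plxnb2 at 60 minutes without either 120 minute array (-0.20 each; 0.0460 and 0.0472 for Sema3a, 0.0299 each for Plxnb2). Plxnb3 passed over 120 minutes without the mutant array of that time (0.48; 0.0250) and from 60 to 120 minutes without the wild-type one (-0.50; 0.0357). Sema3f passed over 120 minutes without the mutant array of that time (-0.43; 0.0349) and from 60 to 120 minutes without the wild-type array of 60 minutes (0.54; 0.0102).

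The neuropilin genes each had 4 probe sets above the limit, on their mean level, which differed in when they changed. Of the Nrp1 sets, 3 stood near their 0 minute level at 60 minutes (log2 -0.07, -0.13 and 0.00) and rose by 1.57 to 1.74 at 120 minutes. The dimmest set, 1457198_at, had intensities of 10.2, 67.5 and 90.5 at 0, 60 and 120 minutes in mutant cells, against 21.5, 85.5 and 149.5 in wild-type cells. It had thus risen by 1.55 ± 0.12 at 60 minutes (adjusted p = 3.64e-05 when all probe sets were fitted) and by 2.08 ± 0.12 at 120 minutes. At 0 minutes this set lay below the limit in both genotypes, so it entered the test through its later levels. The size depends on the offset, and the 60 minute change was 2.28 with offset 1 and 0.82 with offset 64. Of the Nrp2 sets, 1447343_at had intensities of 143, 64.7 and 112 in mutant cells and 154, 64.0 and 122 in wild-type cells. It fell by 1.03 ± 0.099 on the log2 scale at 60 minutes (adjusted p = 0.000115), where the other 3 gave -0.05, -0.11 and -0.18, and all 4 sets gave -0.30 to -0.36 at 120 minutes. The early change of either set was seen in both genotypes. With the mean of all 4 sets, the change at 60 minutes was 0.34 for Nrp1 (adjusted p = 0.0146) and -0.34 for Nrp2 (0.00326), where the brightest sets alone gave no call. Which part of the transcripts these sets bind was not analysed here.

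**Figure D4:**
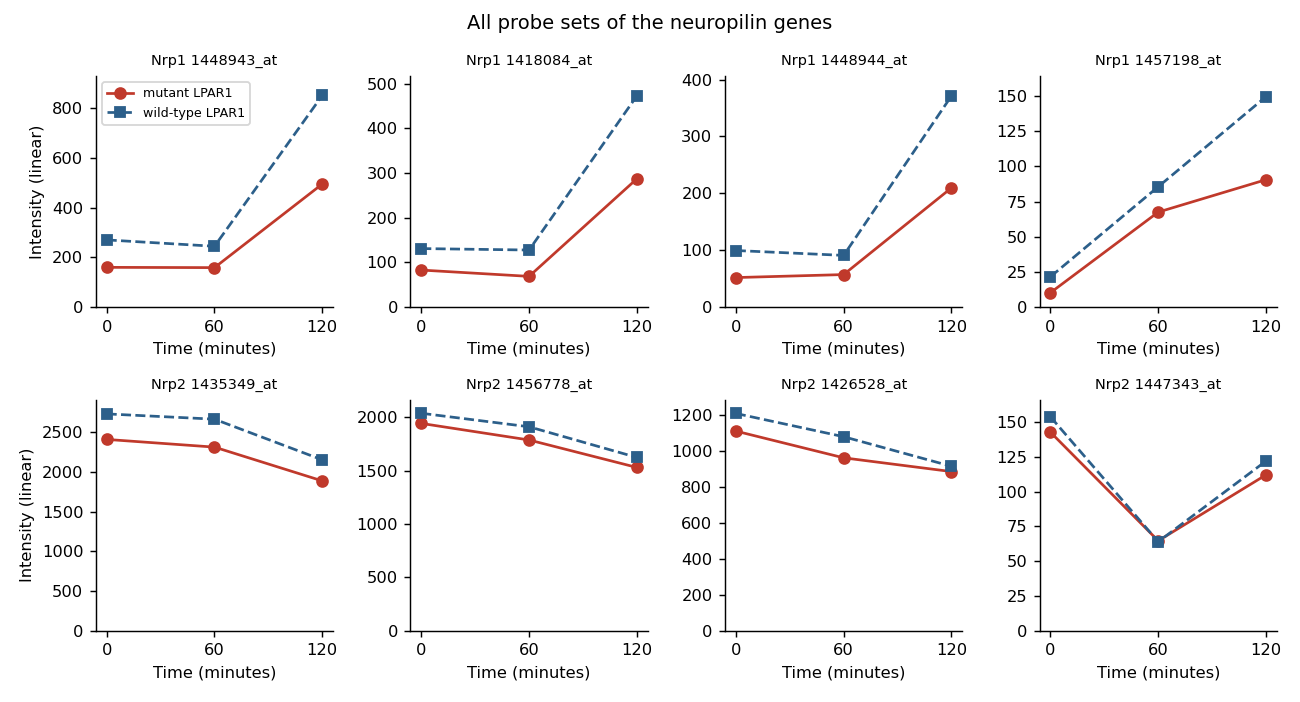
Linear intensity of all 4 probe sets of Nrp1 (top) and of Nrp2 (bottom), brightest to the left, against time in minutes in mutant LPAR1 cells (circles) and wild-type LPAR1 cells (squares, dashed line); each point is 1 array. Nrp1 1457198_at has already risen and Nrp2 1447343_at has dropped at 60 minutes, where the other sets stand near their 0 minute level.

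The difference between genotypes in these time changes could not be tested, since each genotype had 1 array per time. Over 120 minutes the log2 change of Sema7a was 2.35 in mutant and 2.90 in wild-type cells, and that of Sema4b 1.19 in mutant and 1.75 in wild-type cells. Both genes thus gained less in mutant cells, by 0.55 and 0.56 on this scale (untested). For Nrp1 the change was 1.54 in mutant and 1.60 in wild-type cells, so its lower level in mutant cells was present at 0 minutes and kept at 120 minutes. Plxnb3 changed by -0.14 in mutant and 0.44 in wild-type cells. Sema3f changed by -0.69 in mutant and -0.13 in wild-type cells over the first 60 minutes, and by -0.10 in mutant and -0.29 in wild-type cells over 120 minutes.

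The 11 genes below the limit were Plxnc1, Sema3d, Sema3e, Sema3g, Sema4d, Sema4f, Sema4g, Sema5b, Sema6a, Sema6b and Sema6d, with intensities between 6.36 and 52.8 on any array. They include Plxnc1, the plexin receptor of Sema7a, at 21.2, 20.1 and 22.1 in mutant cells and 18.0, 17.6 and 19.7 in wild-type cells. Sema4d, the ligand of Plxnb1, stood at 25.9, 17.9 and 40.8 in mutant cells and 21.9, 22.5 and 20.7 in wild-type cells, with a single array just above the limit. When no limit was set, 2 of these genes passed. Sema3e, which binds Plxnd1 without a neuropilin, was higher in mutant cells by log2 0.43 ± 0.10 (adjusted p = 0.0305). Of all 18193 genes then tested, 973 passed as higher and 873 as lower for genotype. Sema6d was higher at 120 than at 0 minutes by 0.48 ± 0.12 (adjusted p = 0.0155), where 1732 of all genes passed as higher and 3209 as lower. Its intensities were 17.0, 22.0 and 29.4 in mutant cells and 12.7, 19.8 and 24.3 in wild-type cells, all below the limit. The other Sema6d probe sets gave -0.24, 0.18 and -0.08 for this change. The tested member nearest the limit was Sema6c, a transmembrane ligand of the A-type plexins, at 46.3, 41.9 and 44.7 in mutant cells and 37.3, 51.8 and 39.1 in wild-type cells. Sema3e was the nearest below it.

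Partners of the receptors at the cell surface were taken from a list of 19 genes, of which 8 were above the limit. For genotype 2 passed as higher and 3 as lower, against 10.4% and 8.95% of all genes, with a median log2 difference of 0.03. Itga1, an integrin alpha subunit, differed by -0.50 (adjusted p = 0.0204), with intensities of 44.6, 39.9 and 24.9 in mutant and 59.4, 55.1 and 56.4 in wild-type cells. Its mutant arrays lay near or below the limit for testing of 39.2, so it passed the limit mainly through its level in wild-type cells. Itgb1, the integrin subunit through which Sema7a acts, differed by -0.42 ± 0.047 in mutant cells (adjusted p = 0.000338), with intensities of 1079, 1291 and 1433 in mutant and 1517, 1719 and 1834 in wild-type cells. Vegfa, a ligand of Nrp1, differed by -0.31 ± 0.074 (adjusted p = 0.0177). Its intensities were 332, 405 and 522 in mutant and 362, 504 and 748 in wild-type cells. Vegfb, a growth factor gene of the same list, went the other way, at 0.29 ± 0.073 (adjusted p = 0.0215). Met, the hepatocyte growth factor receptor that associates with plexins of the B type, was higher in mutant cells by 0.34 ± 0.057 (adjusted p = 0.00310), with 1188, 1183 and 1536 in mutant and 923, 852 and 1328 in wild-type cells. Over 120 minutes 3 of the 8 rose and 1, the growth factor gene Vegfb, fell (-0.51; adjusted p = 0.00117), against 16.2% of all genes higher and 30.8% lower, with Vegfa at 0.82 ± 0.090 (adjusted p = 5.88e-05) and Met at 0.44 ± 0.070 (0.000583) among the rising genes.

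Of 36 intracellular effectors of plexins, 30 were tested, and for genotype 0 passed as higher (limma; 3 at an unadjusted p under 0.05) and 5 as lower, with a median log2 difference of 0.02. Rnd3, which encodes a small GTP-binding protein, was among the lower genes (log2 -0.44 ± 0.057; adjusted p = 0.000788), as was Farp1, a guanine nucleotide exchange factor (-0.42 ± 0.069; 0.00309). Over all genes 10.4% passed as higher and 8.95% as lower for genotype. Over 120 minutes 8 effectors rose and 5 fell, against 16.2% of all genes higher and 30.8% lower. Mical2, an enzyme that oxidises actin, had intensities of 70.4, 107 and 255 in mutant cells and 63.8, 75.7 and 259.5 in wild-type cells, a rise of 1.72 ± 0.12 (adjusted p = 2.49e-06). Mras, a Ras family GTPase, rose by 0.63 ± 0.11 (adjusted p = 0.00111). Rnd3 rose by 0.56 ± 0.070 at 60 minutes and stood 0.58 ± 0.070 below its 0 minute level at 120 minutes.

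Other guidance families, the slits, netrins, ephrins and their receptors, were described for comparison by a list of 42 genes, of which 24 were tested. For genotype 3 were higher and 1 lower, against 10.4% and 8.95% of all genes, with a median of 0.06. Those that passed were the ephrin receptor Epha7 (1.21 ± 0.18; adjusted p = 0.00154), the ligand Slit2 (1.01 ± 0.061; 6.28e-06), Rgmb, a ligand of neogenin (0.21; 0.0346), and Neo1, which encodes neogenin (-0.49 ± 0.069; 0.00124). Epha7 had intensities of 98.1, 86.3 and 55.0 in mutant cells and 19.0, 24.7 and 30.9 in wild-type cells. All its wild-type arrays lay below the limit, so it entered the test through its level in mutant cells. Slit2 had intensities of 730.2, 737 and 682 in mutant cells and 342, 334 and 364 in wild-type cells, with little change over time. Over the first 60 minutes 4 rose and 3 fell, against 7.34% and 10.7% of all genes. Epha2 rose by 2.68 ± 0.096 (adjusted p = 4.25e-08), and Ephb3, another ephrin receptor, and the ephrin Efna1 changed by -1.35 ± 0.10 and -1.28 ± 0.12 (adjusted p = 1.32e-05 and 4.64e-05). Over 120 minutes 3 of the 24 rose and 11 fell, against 16.2% of all genes higher and 30.8% lower, with a median of -0.24 (all genes -0.09).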

How the data were processed

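Total RNA of NIH3T3 cells was measured on 6 Affymetrix arrays. The authors deposited linear intensities, 1 per probe set, summarised by PLIER in Affymetrix Power Tools 1.14.3.1 according to the submitters' processing notes. Background correction and scaling between arrays are not given in the sources used here. Of 45101 probe sets, 64 were controls and 34945 were paired with a single gene through the platform annotation. No scaling was added, and values were analysed as log2(intensity + 16). A gene was read at its brightest probe set by mean, and a 40th percentile limit on the mean left 10916 genes. This offset compresses differences of dim genes. Limma 3.58.1 (R 4.3.3) fitted genotype and time as additive terms with a trend in shrinkage, 2 residual degrees of freedom and 7.73 added by shrinkage. Tests were two-sided, with Benjamini-Hochberg adjustment over all genes within a contrast. Time, from the labels, pairs the arrays: deviations from the mean of a genotype correlated across genes between genotypes at 0.912, 0.757 and 0.871 for 0, 60 and 120 minutes, which includes the shared response to time. The few arrays limit the precision. All 31 members were accounted for, and of each partner list the counts and up to 4 genes by size of change were named, with Vegfb added for genotype. Members and lists were chosen with earlier results of these data known. The procedure was tested on simulated data. Promoter sequences are from RefSeq, GRCm38.p6. Alternatives were offsets, filters, probe-set rules, scalings, shrinkage, the block and each array left out.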

Additional observations from a re-analysis of the deposited data

Results flagged for a closer look

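Sema3e had a mean intensity of 48.0 ± 5.10 in mutant cells and 31.5 ± 1.57 in wild-type cells (SD, n = 3 arrays each), and drew attention because all mutant arrays lay above the limit for testing and above every wild-type array, although the gene's mean log2(intensity + 16), on which the limit was set, fell just below it and the gene was left out of the comparisons. Its intensities were 42.7, 48.4 and 52.8 at 0, 60 and 120 minutes in mutant cells and 33.1, 31.5 and 30.0 in wild-type cells. The other 3 Sema3e probe sets gave log2 differences of -0.15, -0.08 and 0.08, so the difference stands at 1 probe set.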

How the results depend on the processing

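There were 23 calls among the members over the 4 contrasts. Of these, 14 kept call and direction in every alternative that tested the gene and kept the time or genotype block. The 60th percentile filter tested 8 members and the mean of all probe sets 18, against 20 in the main fit. Calls of members not tested there could not be lost. Without the block 8 of the 14 also held. The 8 were those of Nrp1, Sema4b and Sema7a at 120 against 0 and against 60 minutes and of Sema4c at 60 and 120 against 0 minutes. Without the replicate block 13 of the 23 calls were lost, the 7 of genotype and those of Nrp2 (adjusted p = 0.0612 over 120 and 0.164 from 60 to 120 minutes), Sema3a (0.157), Sema3c (0.617), Plxnb2 (0.195) and Sema7a at 60 minutes (0.198). Members called then numbered 0 (from 7) for genotype and 5 (from 9) for 120 minus 0 minutes, and all genes called numbered 91 (from 2115), 585 (from 1964), 2769 (from 5127) and 1005 (from 2741) for genotype, 60 minus 0, 120 minus 0 and 120 minus 60 minutes. With a 60th percentile filter, which left 8 members, 0 were called for 60 minus 0 minutes (limma; 2 at an unadjusted p under 0.05), against 3 of 20. The 3 (Sema7a, Plxnb1 and Sema4c) were not among the 8, so no call was lost. Of 7277 genes tested with this filter, 710 passed as higher and 847 as lower. Without the trend in shrinkage 1402 genes were called for genotype. With all 21705 probe sets fitted, more features being tested, 3413, 8493 and 4297 were called for 60 minus 0, 120 minus 0 and 120 minus 60 minutes. Leaving out each array in turn gave 6 to 8 members for genotype, 1 to 6 for 60 minus 0, 7 to 10 for 120 minus 0 and 4 to 6 for 120 minus 60 minutes. The corresponding counts over all genes were 1363 to 2164, 1145 to 2511, 3674 to 5311 and 1932 to 2714. Counts moved by over 1.5 times for genotype without any 0 or 60 minute array (1363 to 1389 genes) and for 60 minus 0 minutes without the mutant array of 60 (1145 genes, 2 members) or of 0 minutes (1159) or the wild-type array of 0 minutes (1184 genes, 1 member). Either 120 minute array left out gave 6 members there. Of the single genes, 2 reversed, both with the mean of all probe sets: Nrp1 at 60 minus 0 minutes became 0.34 and passed (adjusted p = 0.0146), and Nrp2 at 120 minus 60 minutes became 0.0061. In both, the dimmest probe set described above enters the mean. The cause of the other changes was not tested. Dim genes, Sema7a at 0 minutes and Sema3b in mutant cells above all, are limited by signal over background.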
